A study of Gallus gallus with 88 samples.

Results

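Breast muscle (Musculus pectoralis major) of broiler embryos was compared on embryonic day 13 between eggs held at 38.8 °C and eggs held at 36.8 °C over embryonic days 10 to 13. The 16 arrays (8 per temperature) are those whose titles carry the prefixes H13 and L13, out of 88 arrays in the series, and a further 8 arrays of the same age came from eggs kept at 37.8 °C throughout. All eggs were at 37.8 °C outside that interval, each array held RNA of 1 frozen tissue sample, and the sex of the embryos is not given. The direct contrast spans 2 °C and asks which transcripts differ between the warm and the cool end of the range at the close of the exposure. The deposited values are log2 signals of Affymetrix probe sets, so a difference of 1 is a doubling. Differences were tested with limma, a linear model that shares the estimate of spread between probe sets, and a probe set is said to have risen or fallen at 38.8 °C where its Benjamini-Hochberg adjusted p over all 20706 probe sets was under 0.05.

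Bird embryos do not hold their own temperature at this stage, so incubation temperature sets tissue temperature and the rate of development. In the breast muscle of this age, myoblasts fuse into fibers and assemble fast-twitch sarcomeres, while the connective tissue around them deposits collagens and proteoglycans. Heat shock proteins, which refold damaged proteins, and cold-inducible RNA-binding proteins are the classes best known to follow temperature in animal cells.

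The sample numbers in the titles run in 2 ranges. All 38.8 °C arrays (25 to 36) stand in the listing beside controls 39 to 42, and all 36.8 °C arrays (72 to 83) beside controls 87 to 91. What these ranges stand for is not stated, so the difference between the 4 controls of the first range and the 4 of the second, which share a temperature, is given as the control difference beside the lists that held calls and most of the genes named. The bioB hybridisation control, a spiked-in transcript, read 7.55 or less on all 8 arrays of 38.8 °C, on controls 39 to 42 and on 36.8 °C arrays 72 to 75, and 9.18 or more on 36.8 °C arrays 76, 77, 79 and 83 and on controls 87 to 91. Median correlations of an array with the others of its age were 0.947 to 0.963. Chromosome W probe sets, which mark female embryos, were high on 4 of 8 arrays at 38.8 °C, 4 of 8 at 36.8 °C and 2 of 4 in each control range. Skeletal muscle markers had a summed level of 14.40 to 14.52 at 38.8 °C and 14.42 to 14.53 at 36.8 °C over the 4 of 8 listed markers with a named probe set (ACTA1, TNNT3, MYOD1 and MYOG).

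At 38.8 °C, 733 probe sets were higher (3.54%) and 484 lower (2.34%) than at 36.8 °C, together 1217 or 5.88% of those tested, and 21.2% had an unadjusted p under 0.05. Most of the differences were small: the median was 0.36 log2 among probe sets that rose and −0.25 among those that fell. In named genes, with 1 probe set each, 547 rose (4.74%) and 345 fell (2.99%), together 7.74% of 11528, and in 156 of all named genes (1.35%) the arrays of the 2 temperatures did not overlap. Without regard to the test, 6012 named genes were higher and 5516 lower at 38.8 °C. Counts in gene lists are read against these shares. Between controls 39 to 42 and controls 87 to 91, 151 probe sets were higher (0.729%) and 32 lower (0.155%), together 0.884%. In that control comparison 27.3% had an unadjusted limma p under 0.05, against 21.2% for the temperature difference. The 2 shares are not like measures. The first compares 4 with 4 arrays in a fit of 4 groups, the second 8 with 8 in a fit of 3 groups that pools the controls. The median control difference of all probe sets was 0.12 above 0. Quantile normalization moved that median to −0.00076, so control differences are read against 0.12. After quantile normalization the split at 38.8 °C was 1118 higher and 1138 lower, and after centring each array on its median it was 993 and 1311.

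Of the 733 probe sets that rose, 705 (96.2%) were also higher in controls 39 to 42 than in controls 87 to 91, where their median difference was 0.25. Of the 484 that fell, 304 (62.8%) were higher in controls 39 to 42, with a median of 0.03. Over all 20706 probe sets 14547 (70.3%) were higher there, with a median of 0.12. Subtracting the control difference left a median of 0.10 for the rising and −0.28 for the falling probe sets, against −0.09 over all. Measured from that shift of all probe sets, the medians were 0.19 and −0.19. Both sets were chosen by the temperature difference on these arrays, and the control-subtracted value contains that same difference. Medians on the chosen side therefore follow in part from that choice and cannot show how much remains beyond the control difference.

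**Figure D1:**
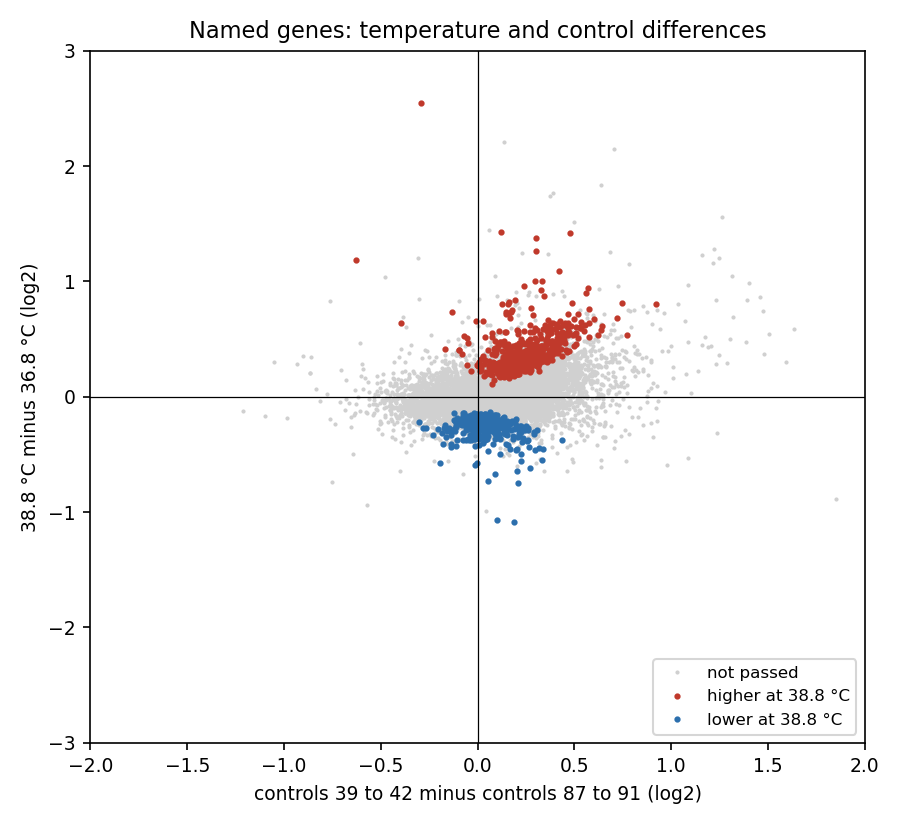
Log2 difference between 38.8 °C and 36.8 °C (vertical axis) against that between controls 39 to 42 and controls 87 to 91 (horizontal axis), 1 point per named gene, with genes that passed limma coloured. Rising genes (red) lie mostly right of 0 on the horizontal axis and falling genes (blue) on both sides of it; 2 of the 11528 genes, neither of which passed, lie outside the axes.

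Tested in the same limma fit, the control-subtracted difference passed at 28 probe sets (0.135%), 27 lower (0.13%) and 1 higher (0.00483%). After quantile normalization or centring on the array medians, which bring the median of all probe sets to −0.00015 and 0.01, it passed at 1 probe set, which was lower. Without any 1 array, this count stayed within 1.5 times for 38.8 °C arrays 30 and 36 (32 and 42) and control 88 (24). It was 0 without control 39, 40 or 91, 1 without 38.8 °C array 32, 36.8 °C array 72 or 73 or control 42, and 3 without 38.8 °C array 29 or 36.8 °C array 79. It was 4 without control 87, 5 without 38.8 °C array 26 or 36.8 °C array 74, 6 without 36.8 °C array 75 and 9 without 38.8 °C array 27 or 28. It was 10 without 38.8 °C array 25 or 36.8 °C array 77, 11 without 36.8 °C array 76, 125 or slightly more without control 89 or 41, and 183 without 36.8 °C array 83. The control difference itself passed at 0 probe sets without control 40 or 91, 1 without control 39 or 42, 6 without control 87, 363 without control 88, 1752 without control 89 and 1758 without control 41. The 4 controls of a range therefore limit how well the subtraction is known. In the controls the number range and the bioB level also run together, while the 36.8 °C arrays hold both bioB levels. The control difference therefore cannot tell range and bioB apart, and the part of bioB in the subtracted values was not tested.

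Arrays were also compared by bioB level. All 36.8 °C arrays lie in the second number range at either bioB level, so this leaves the split between ranges in place. Among the 36.8 °C arrays, the 4 with low and the 4 with high bioB differed at 0 probe sets by limma, with 4.52% at an unadjusted p under 0.05. Using only the 16 arrays of low bioB (8 at 38.8 °C, 4 controls and 4 at 36.8 °C), 538 probe sets rose (2.6%) and 259 fell (1.25%) at 38.8 °C, together 3.85%. Of these 797, 595 were among the 1217, which follows in part from the use of the same arrays in both counts. No control of the second range has low bioB. Set against the 4 high-bioB arrays of 36.8 °C alone, 446 rose (2.15%) and 168 fell (0.811%), together 2.97%. With bioB as a numeric covariate the counts were 107 and 243. Against their own range of controls, the 38.8 °C arrays differed at 0 probe sets (3.6% at an unadjusted p under 0.05) and the 36.8 °C arrays at 875 (4.23%), of which 798 were higher (3.85%) and 77 lower (0.372%). These are different contrasts with 4 controls each, and whether they differ in size was not tested. Array medians were 7.72, 7.80, 7.85 and 7.68 on controls 87, 88, 89 and 91, against 7.79 to 7.97 on the 36.8 °C arrays. The contrasts with the own range of controls were not repeated after normalization. The part of array-wide shifts in the split of 798 and 77 was therefore not tested.

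Of the 12 largest rises, the smallest adjusted p was that of LBFABP, the liver basic fatty acid binding protein of birds. Its level ran from 7.49 to 8.37 with a median of 7.80 at 38.8 °C, and from 6.00 to 6.85 with a median of 6.40 at 36.8 °C. It read 7.37, 7.20, 6.88 and 7.73 in controls 39 to 42 and 6.70, 7.01, 7.08 and 6.48 in controls 87 to 91. Every 38.8 °C array lay above every 36.8 °C array, and most controls lay between. The difference was 1.42 ± 0.16 log2 (SE, n = 8 each, limma adjusted p = 9.94e-05), against 0.48 between the control ranges. After subtraction it was 0.94 ± 0.26 (adjusted p = 0.102).

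MIR125B2, a gene of the microRNA miR-125b family, had a similar pattern. It was taken by name, with earlier results of these data known, and was not among the largest rises listed. It lay between 6.18 and 6.57 (median 6.31) at 38.8 °C and between 5.21 and 5.94 (median 5.40) at 36.8 °C, with no overlap. Controls 39 to 42 read 5.87, 5.60, 5.72 and 6.13 and controls 87 to 91 read 5.33, 5.51, 5.77 and 5.34, so 1 of the 8 controls reached above all 36.8 °C arrays and none reached the 38.8 °C arrays. The rise was 0.88 ± 0.11 (limma adjusted p = 2.08e-04), and 0.53 ± 0.17 after subtraction of the control difference of 0.34 (adjusted p = 0.139). The array signal is that of the gene's probe set and does not measure the mature microRNA separately.

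Of the 12 largest falls, the smallest adjusted p was that of LGI2, which encodes a secreted leucine-rich repeat protein. It ran from 7.69 to 8.40 (median 8.15) at 38.8 °C and from 8.79 to 9.66 (median 9.22) at 36.8 °C. Controls 39 to 42 read 8.66, 8.53, 8.62 and 8.69, and controls 87 to 91 read 8.40, 8.37, 8.95 and 8.37. The warm and cool arrays did not overlap, and the control ranges differed by only 0.10. LGI2 fell by 1.07 (SE 0.12, limma adjusted p = 9.94e-05), and the control-subtracted difference was −1.17 ± 0.22 (adjusted p = 0.0454).

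AKR1D1, the steroid 5β-reductase of bile acid and steroid metabolism, was at 8.20 to 8.92 (median 8.65) at 38.8 °C and 9.11 to 9.52 (median 9.33) at 36.8 °C. Its controls read 8.97, 9.05, 8.78 and 8.83 in the first range and 8.92, 8.79, 8.74 and 8.35 in the second, all below every 36.8 °C array. The difference was −0.75 ± 0.10 (limma adjusted p = 3.64e-04), and −0.96 ± 0.17 after subtraction (adjusted p = 0.0384). GUSB, the lysosomal enzyme β-glucuronidase, was at 8.98 to 9.27 (median 9.17) at 38.8 °C and 9.44 to 9.67 (median 9.61) at 36.8 °C. Controls of GUSB read 9.49, 9.56, 9.29 and 9.34 in the first range and 9.22, 9.03, 9.36 and 8.999 in the second. Its difference of −0.43 ± 0.07 (limma adjusted p = 0.00245) ran opposite to the control difference of 0.27, so that −0.70 ± 0.10 remained (adjusted p = 0.0128), the smallest adjusted p of the control-subtracted comparison. GUSB was also the gene that passed after subtraction on quantile-normalized values (−0.57, adjusted p = 0.0199).

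**Figure D2:**
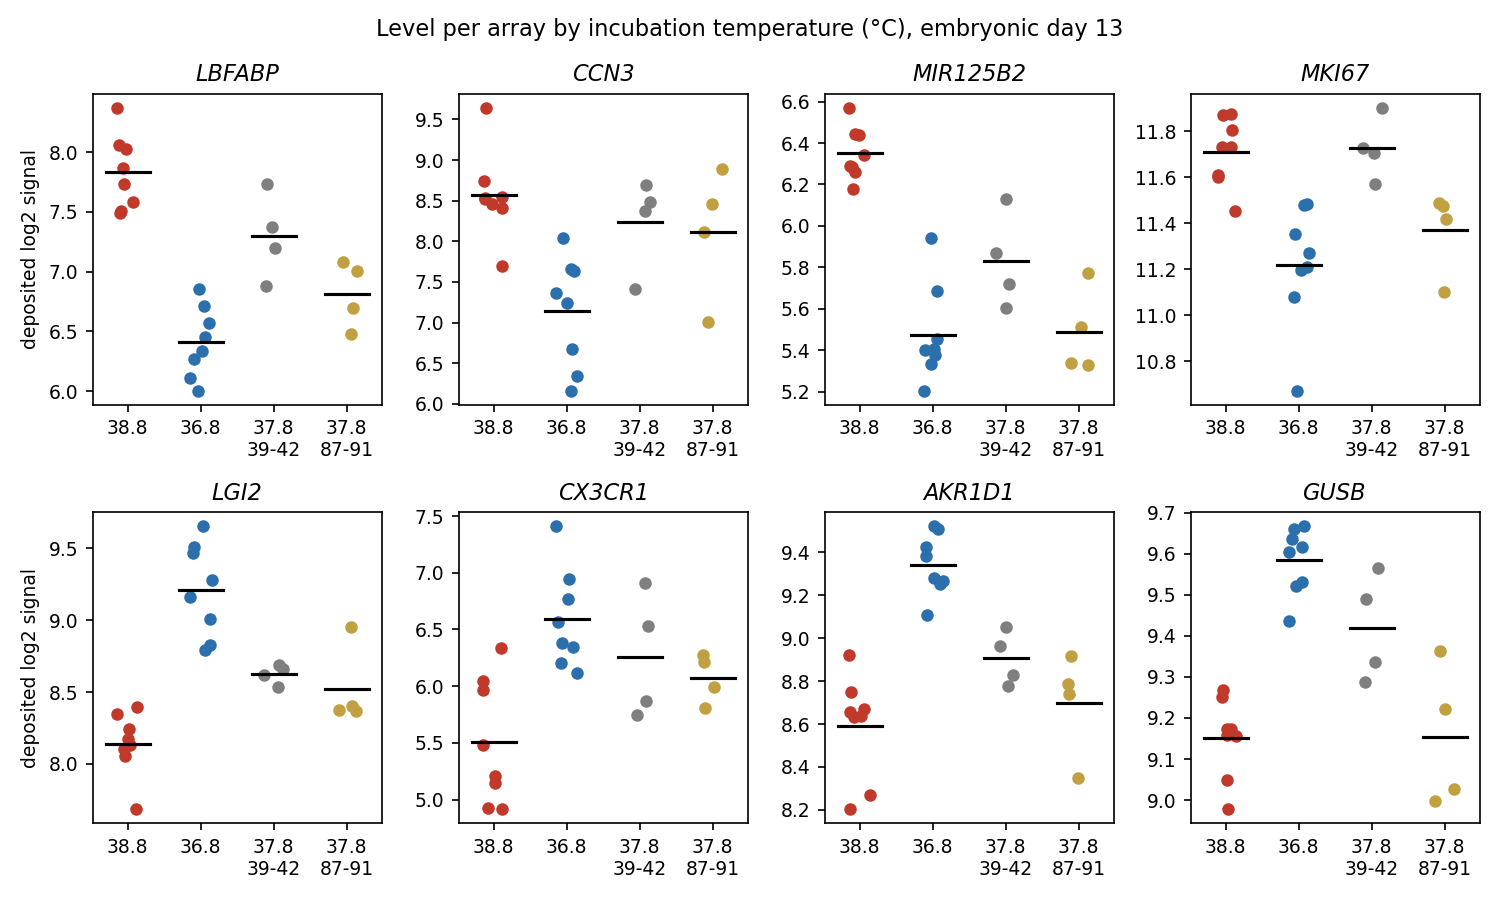
Deposited log2 signal of 8 genes on each day 13 array (vertical axes), with points for arrays and bars for group means: 38.8 °C (red, n = 8), 36.8 °C (blue, n = 8), and the 37.8 °C controls numbered 39 to 42 (grey, n = 4) and 87 to 91 (yellow, n = 4). In LBFABP, MIR125B2, LGI2, AKR1D1 and GUSB the warm and cool arrays do not overlap; in CCN3, MKI67 and CX3CR1 they do.

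Other genes that passed after control subtraction, whether or not they had passed before it, were all lower at 38.8 °C. Among them were HENMT1, a methyltransferase of small RNAs (−0.44 ± 0.09 before and −0.76 ± 0.13 after subtraction, limma adjusted p = 0.00761 and 0.0384), and KIF1A, an axonal transport kinesin (−0.25 and −0.50, adjusted p = 0.0228 and 0.0385). SLC22A4, an organic cation transporter, had −0.38 and −0.81 (adjusted p = 0.0409 and 0.0454), PRRG4 −0.25 and −0.48, and ANGEL1 −0.21 and −0.40. DNAJB12, a co-chaperone of the endoplasmic reticulum, and LOC422320 did not pass before subtraction (−0.15 and −0.18, adjusted p = 0.223 and 0.133) and passed after it (−0.50 and −0.49). For these 7 genes the control difference, at 0.20 to 0.44, ran opposite to the temperature difference. They were chosen by the smallest p after subtraction, which favours genes with such opposite differences. Of all 11528 named genes, 8799 were higher in the first range of controls and 8073 were lower after subtraction. The shared direction is therefore not particular to these genes. On quantile-normalized values GUSB alone passed after subtraction, so neither these 7 genes nor LIPA did. LIPA, the lysosomal acid lipase, was picked out after its values were seen: it had −0.37 ± 0.08 before and −0.63 ± 0.13 after subtraction (adjusted p = 0.0125 and 0.0489).

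The largest rise in a named gene was uneven among the 38.8 °C embryos. COL9A1, a collagen of cartilage, read 8.15, 9.60 and 10.24 on 38.8 °C arrays 27, 28 and 29 and 4.68 to 5.53 on the other 5, against 3.18 to 4.61 at 36.8 °C. Its mean difference of 2.55 ± 0.69 (limma adjusted p = 0.0306) thus rests on 3 arrays; without them it was 0.93 (adjusted p = 0.134). Its controls, at 4.80 to 5.15 in the first range and 4.09 to 6.56 in the second, overlapped the 36.8 °C arrays only in the second range.

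Of the other genes among the 12 largest rises, 5 are grouped here after their values were seen. The same 3 arrays were the highest for GDF5, a growth factor of joints and cartilage (1.18 ± 0.32, adjusted p = 0.0319), and for COL8A1, a short-chain collagen (1.27 ± 0.37, adjusted p = 0.0459). ITGBL1, an integrin-like matrix protein (1.37 ± 0.28, adjusted p = 0.00916), and THBS1, the matrix glycoprotein thrombospondin 1 (0.92 ± 0.26, adjusted p = 0.0359), had their highest values there too. CCN3, a secreted matricellular protein, was at 7.69 to 9.65 (median 8.52) at 38.8 °C and 6.16 to 8.04 (median 7.30) at 36.8 °C, with 7 of 8 warm arrays above all cool ones, and rose by 1.43 ± 0.30 (adjusted p = 0.00971). Without the 3 arrays the differences were 0.59 for GDF5, 0.55 for COL8A1, 0.91 for ITGBL1, 0.45 for THBS1 and 1.19 for CCN3, none past the threshold (limma adjusted p = 0.271, 0.349, 0.0662, 0.236 and 0.0682). With fewer warm arrays that fit also has less power. After control subtraction GDF5 stood at 1.81, CCN3 at 1.31, ITGBL1 at 1.07, COL8A1 at 0.96 and THBS1 at 0.60, at adjusted p between 0.124 and 0.523. Their control differences were −0.63 for GDF5, 0.12 for CCN3, 0.30 for ITGBL1, 0.30 for COL8A1 and 0.33 for THBS1.

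**Figure D3:**
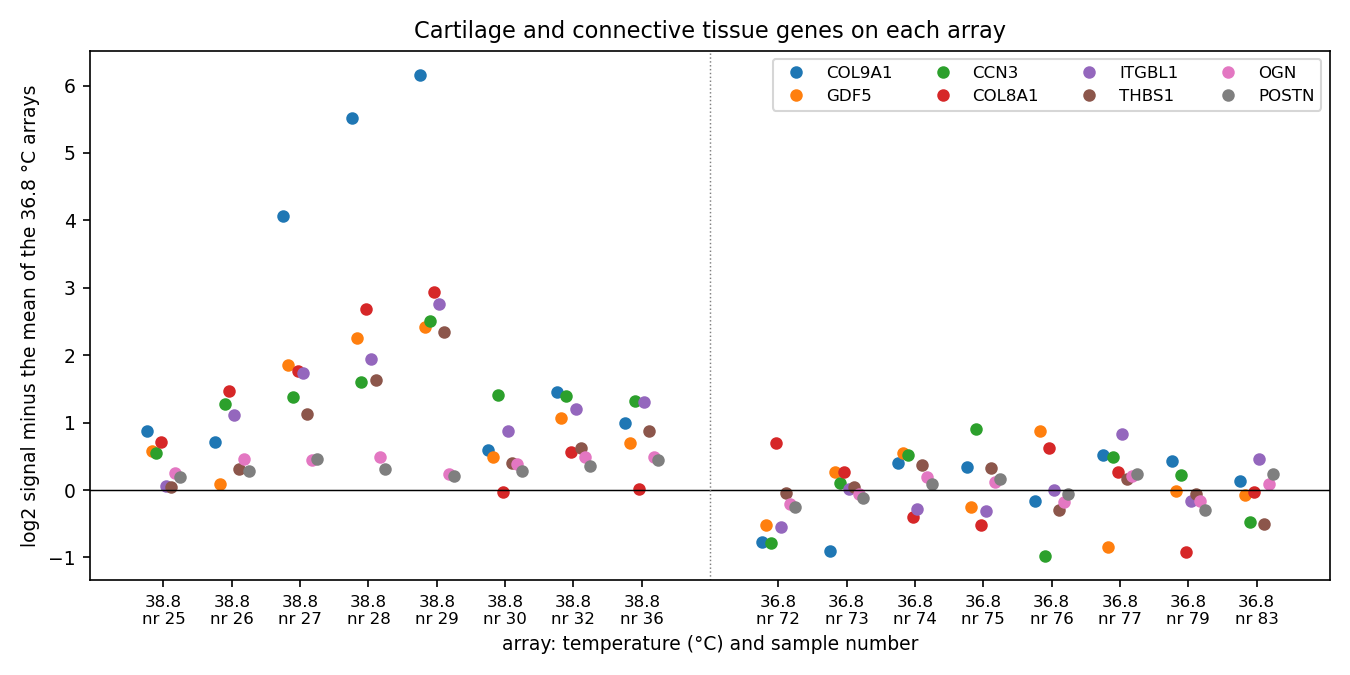
Log2 signal minus the mean of the 36.8 °C arrays (vertical axis) for 8 cartilage and connective tissue genes on each 38.8 °C array (left) and each 36.8 °C array (right), named by sample number. COL9A1 (blue) stands out on arrays 27, 28 and 29, while OGN and POSTN (pink and grey) shift by a similar small amount on most 38.8 °C arrays.

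As a list, 14 of 16 measured cartilage markers were higher at 38.8 °C, with a median of 0.49, but only COL9A1 passed the test (6.25%). Over all named genes the median was 0.01, 6012 of 11528 were higher and 4.74% rose. The summed level of the 4 defining cartilage markers measured (ACAN, MATN1, COL9A1 and HAPLN1, of 5 listed) ran from 7.57 to 11.7 at 38.8 °C and from 7.42 to 8.46 at 36.8 °C. The list's control median was 0.14. Its control-subtracted median was 0.36 (14 of 16 higher), against −0.10 over all named genes (3455 of 11528 higher). Without the 3 high arrays the list's median temperature difference was 0.06. Those arrays were picked by COL9A1, itself a member, so a lower median follows in part from that choice. In the tissue as sampled, more cells of a type cannot be told apart from more RNA per cell.

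Of 26 genes of extracellular matrix and fibroblasts, 23 were higher at 38.8 °C (median 0.17), against 6012 of 11528 named genes. Of these 26, 4 rose (15.4%, against 4.74% of all named genes) and 0 fell. Without arrays 27 to 29 the median was 0.08 and 1 member passed. OGN, the small proteoglycan osteoglycin, ran from 13.02 to 13.28 at 38.8 °C and from 12.58 to 13.00 at 36.8 °C without overlap, a rise of 0.41 ± 0.08 (limma adjusted p = 0.00645) that was 0.42 without arrays 27 to 29 (adjusted p = 0.0344). Periostin (POSTN) rose by 0.32, thrombospondin 2 (THBS2) by 0.51 and collagen XIV (COL14A1) by 0.30, and these 3 were not past the threshold without those arrays (0.31, 0.28 and 0.20). With fewer warm arrays that fit has less power, and the difference of POSTN itself was nearly unchanged. The part of cartilage tissue in these differences was not tested. The control-subtracted median of the list was 0.15 (19 of 26 higher), against −0.10 over all named genes. Its control median was 0.08, and the control differences of OGN, POSTN, THBS2 and COL14A1 were 0.05, 0.04, −0.05 and 0.07.

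SERPINH1 (HSP47), the collagen chaperone, was at 12.53 to 12.73 at 38.8 °C and 12.28 to 12.42 at 36.8 °C, again without overlap, and rose by 0.27 ± 0.05 (limma adjusted p = 0.00372). It belongs to a list of 30 heat shock and chaperone genes, of which 7 rose and 1 fell (median 0.09). Those are 23.3% and 3.33%, against 4.74% and 2.99% of all named genes. The control median of that list was 0.11, and after subtraction its median turned to −0.02, with 17 of 30 lower. Over all named genes the control-subtracted median was −0.10, with 8073 of 11528 lower. With quantile normalization as well, the list's median was 0.08 and that of all probe sets −0.00015. The control difference of SERPINH1 was 0.09. HSP90B1, the HSP90 of the endoplasmic reticulum, rose by 0.25 and the co-chaperone DNAJB4 by 0.39, while the cytosolic HSP90AB1 fell by 0.25 (adjusted p = 0.0126, 0.0145 and 0.0134). The constitutive HSPA8 differed by −0.06 (adjusted p = 0.367) and HSPA5 (BiP) by −0.00022 (adjusted p = 0.9996). The cold-inducible RNA-binding protein RBM3 was at 12.54 to 12.69 at 38.8 °C and 12.47 to 12.61 at 36.8 °C, a difference of 0.09 ± 0.04 that did not pass (adjusted p = 0.182), and SRSF5 had −0.12 (adjusted p = 0.117). The control differences of the 5 genes from HSP90B1 to HSPA5 ran from −0.08 to 0.29. That of RBM3 was 0.08, and 0.0092 remained after subtraction. Among 23 genes of the amino acid and unfolded protein response, 2 rose and 0 fell (median 0.06): PDIA4, a disulfide isomerase (0.25, adjusted p = 0.0118, control difference 0.02), and HSP90B1. That list's share of rises was 8.70%, against 4.74% of all named genes. Its control median was 0.12, and its control-subtracted median was −0.02, against −0.10 over all named genes. With quantile normalization as well it was 0.07.

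Among sarcomere genes of fast fibers or common to all fibers, 4 of 20 rose (20%, against 4.74% of all named genes) and 0 fell (median 0.05). MYOM2, an M-band protein, was at 11.86 to 12.08 at 38.8 °C and 11.31 to 11.76 at 36.8 °C, a rise of 0.38 ± 0.07 (limma adjusted p = 0.00372). The giant elastic protein titin (TTN) rose by 0.24, the Z-disc actinin ACTN2 by 0.24 and the actin-capping subunit CAPZA2 by 0.26. The fast myosin heavy chains MYH1B and MYH1C had 0.15 and 0.48 (adjusted p = 0.243 and 0.0775). MYH13, another myosin heavy chain, rose by 1.01 ± 0.22 (adjusted p = 0.0116), with 6 of 8 warm arrays above all cool ones, and its control difference was 0.33. MYOM2, TTN, ACTN2 and CAPZA2 had control differences of 0.13 to 0.15. The list's control median was 0.09, and its control-subtracted median was −0.03, against −0.10 over all named genes. With quantile normalization as well it was 0.07.

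Of 13 slow, cardiac and embryonic sarcomere genes, 2 rose (15.4%, against 4.74% of all named genes) and 0 fell (median −0.02). Those that rose were MYBPC1, the slow myosin-binding protein C (0.31), and the Z-disc protein MYOZ2 (0.28). The embryonic light chain MYL4 had −0.08. Triadin (TRDN), which anchors the calcium release channel, ran from 9.42 to 10.13 at 38.8 °C and from 8.42 to 9.40 at 36.8 °C and rose by 0.77 ± 0.13 (limma adjusted p = 0.00372). It was the only 1 of 15 neuromuscular junction and channel genes to pass (median 0.03). That is 6.67%, against 4.74% of all named genes that rose. The control differences of MYBPC1, MYOZ2 and TRDN were 0.22, 0.13 and 0.28, and the control medians of the slow sarcomere and junction lists 0.13 and 0.11. None of these muscle genes passed after control subtraction; TRDN kept 0.50 (adjusted p = 0.271), MYOM2 0.23 and TTN 0.10.

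Of 14 myogenic regulators (control median 0.06), 0 passed by limma and 1 had an unadjusted p under 0.05 (median −0.01). Over all named genes 4.74% rose and 2.99% fell, and 21.2% of all probe sets had an unadjusted p under 0.05. MYOD1 and MYOG, which drive muscle differentiation, had −0.08 and −0.14, PAX7, a marker of muscle precursors, had −0.08 and EYA1 had 0.19 (adjusted p = 0.0621). CHRNG, the fetal acetylcholine receptor subunit, had −0.21 (adjusted p = 0.246). FGF6, a growth factor made by skeletal muscle, was at 8.14 to 9.17 at 38.8 °C and 7.33 to 7.98 at 36.8 °C and rose by 0.94 ± 0.16 (adjusted p = 0.00372), against 0.57 between the control ranges. Of 23 genes of growth factor and thyroid hormone signalling, 3 rose and 0 fell (median 0.11): ACVR2B, a receptor for myostatin and activin (0.34), IGF2 (0.39) and the activin subunit INHBA (0.58). The rise of ACVR2B was matched by the control difference of 0.36, and −0.01 remained after subtraction; the control differences of IGF2 and INHBA were 0.18 and 0.38. Of these 23 genes 13.0% rose, against 4.74% of all named genes. The list's control median was 0.18, and after subtraction its median turned to −0.12, with 15 of 23 lower. Over all named genes the control-subtracted median was −0.10, with 8073 of 11528 lower. With quantile normalization as well, the list's median was −0.04. Myostatin (MSTN) had 0.21, IGF1 0.37 and the thyroid hormone deiodinases DIO3 and DIO2 −0.51 and 0.01, none past the threshold.

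Of 25 proteasome subunit genes, 22 were lower at 38.8 °C and 7 fell (28%, median −0.14). Over all named genes 5516 of 11528 were lower and 2.99% fell. PSMA5 was at 10.29 to 10.60 at 38.8 °C and 10.62 to 10.81 at 36.8 °C, without overlap, and fell by 0.26 (SE 0.05, limma adjusted p = 0.00656). PSMB3 fell by 0.31, PSMC2 by 0.23 and PSMD13 by 0.21. The control differences of these 4 subunits were between −0.06 and 0.07. After control subtraction 25 of 25 were lower, against 8073 of 11528 named genes. Their median was −0.20, against −0.10 over all named genes. With quantile normalization as well, the median of the 25 subunits was −0.10. After control subtraction 0 of them passed by limma, and 11 had an unadjusted p under 0.05. That last count was not taken over all named genes. In other lists it was 12 of 26 (DNA replication and mitosis), 16 of 52 (oxidative phosphorylation) and 14 of 58 (mitochondrial ribosome). It was 7 of 48 for cytosolic ribosomal proteins and 2 of 30 for heat shock genes, so a high count is not particular to the proteasome.

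Of 52 genes of oxidative phosphorylation and the citrate cycle, 41 were lower, against 5516 of 11528 named genes. Of these 52, 6 fell (11.5%, against 2.99% of all named genes), and the median was −0.07. PDHB, a subunit of pyruvate dehydrogenase, was at 10.15 to 10.34 at 38.8 °C and 10.27 to 10.60 at 36.8 °C and fell by 0.22 (SE 0.05, limma adjusted p = 0.0187). It was the only member to pass after control subtraction (−0.39 ± 0.08, adjusted p = 0.0489). The cytochrome oxidase subunits COX6C and COX6A1 fell by 0.28 and 0.15 and the complex I subunit NDUFS8 by 0.18. Of 58 mitochondrial ribosomal genes 2 fell (MRPS34 by 0.25 and MRPL3 by 0.20, both without overlap; list median −0.05), or 3.45%, near the 2.99% of all named genes that fell. Of 48 cytosolic ribosomal protein genes 39 were lower and 3 fell, or 6.25% (list median −0.07). Those were RPS20, RPL24 and RPS13, by 0.18, 0.17 and 0.17. The control medians of these 3 lists were 0.08, 0.13 and 0.06. Their control-subtracted medians were −0.16, −0.17 and −0.13, against −0.10 over all named genes. With quantile normalization as well they were −0.07, −0.05 and −0.05. Control differences were 0.17 for PDHB and between −0.08 and 0.06 for the other 8 genes named.

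HADHB, a subunit of the trifunctional enzyme of fatty acid oxidation, fell by 0.22 without overlap. It was the only 1 of 25 genes of its list to pass (4%, against 2.99% of all named genes that fell), and the list's median was −0.03. In glycolysis and glycogen metabolism, 2 of 19 genes rose (10.5%) and 1 fell (5.26%), with a median of −0.03. Over all named genes 4.74% rose and 2.99% fell. The phosphorylase kinase subunit PHKB ran from 9.99 to 10.42 at 38.8 °C and from 9.50 to 9.98 at 36.8 °C and rose by 0.46 ± 0.07 (limma adjusted p = 0.00253), phosphofructokinase (PFKM) rose by 0.40 and enolase 1 (ENO1) fell by 0.14. In sterol and fatty acid synthesis, 17 of 22 genes were lower (median −0.17), against 5516 of 11528 named genes. Of these 22, 3 fell (13.6%) and 1 rose (4.55%). Those that fell were SREBF2, the transcription factor that drives sterol synthesis (by 0.34), squalene synthase FDFT1 (by 0.43) and lanosterol synthase LSS (by 0.36). INSIG2, which holds back SREBP processing, rose by 0.31. A second, dim FDFT1 probe set showed 0.03. Control differences were −0.14 for FDFT1, 0.05 for SREBF2, 0.18 for LSS, 0.22 for INSIG2, 0.16 for PHKB, 0.20 for PFKM, 0.06 for ENO1 and −0.05 for HADHB. The control medians were 0.06 for sterol synthesis, 0.12 for glycolysis and 0.09 for fatty acid oxidation. Control-subtracted medians were −0.20, −0.12 and −0.09, against −0.10 over all named genes. With quantile normalization as well they were −0.09, −0.02 and 0.0018, against −0.00015 over all probe sets.

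In DNA replication and mitosis, 20 of 26 genes were lower (median −0.10), against 5516 of 11528 named genes. But 2 mitotic genes rose (7.69%, against 4.74% of all named genes). MKI67, the proliferation marker Ki-67, ran from 11.45 to 11.88 at 38.8 °C and from 10.67 to 11.49 at 36.8 °C and rose by 0.49 ± 0.11 (limma adjusted p = 0.0125); its 5 probe sets showed 0.37 to 0.68, and 4 of them passed. Controls 39 to 42 read 11.57, 11.71, 11.73 and 11.90 and controls 87 to 91 read 11.10, 11.42, 11.48 and 11.49 for MKI67, which leaves 0.14 after subtraction. CENPF, a centromere protein, rose by 0.64 (adjusted p = 0.0494; 0.51 and not past the threshold in its second probe set), but its control difference was 0.58, which leaves 0.06 (adjusted p = 0.942). RFC4, a clamp loader subunit, fell by 0.24 (adjusted p = 0.016), with a control difference of 0.05. The list's control median was 0.13 and its control-subtracted median −0.21, against −0.10 over all named genes. With quantile normalization as well it was −0.11.

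**Figure D4:**
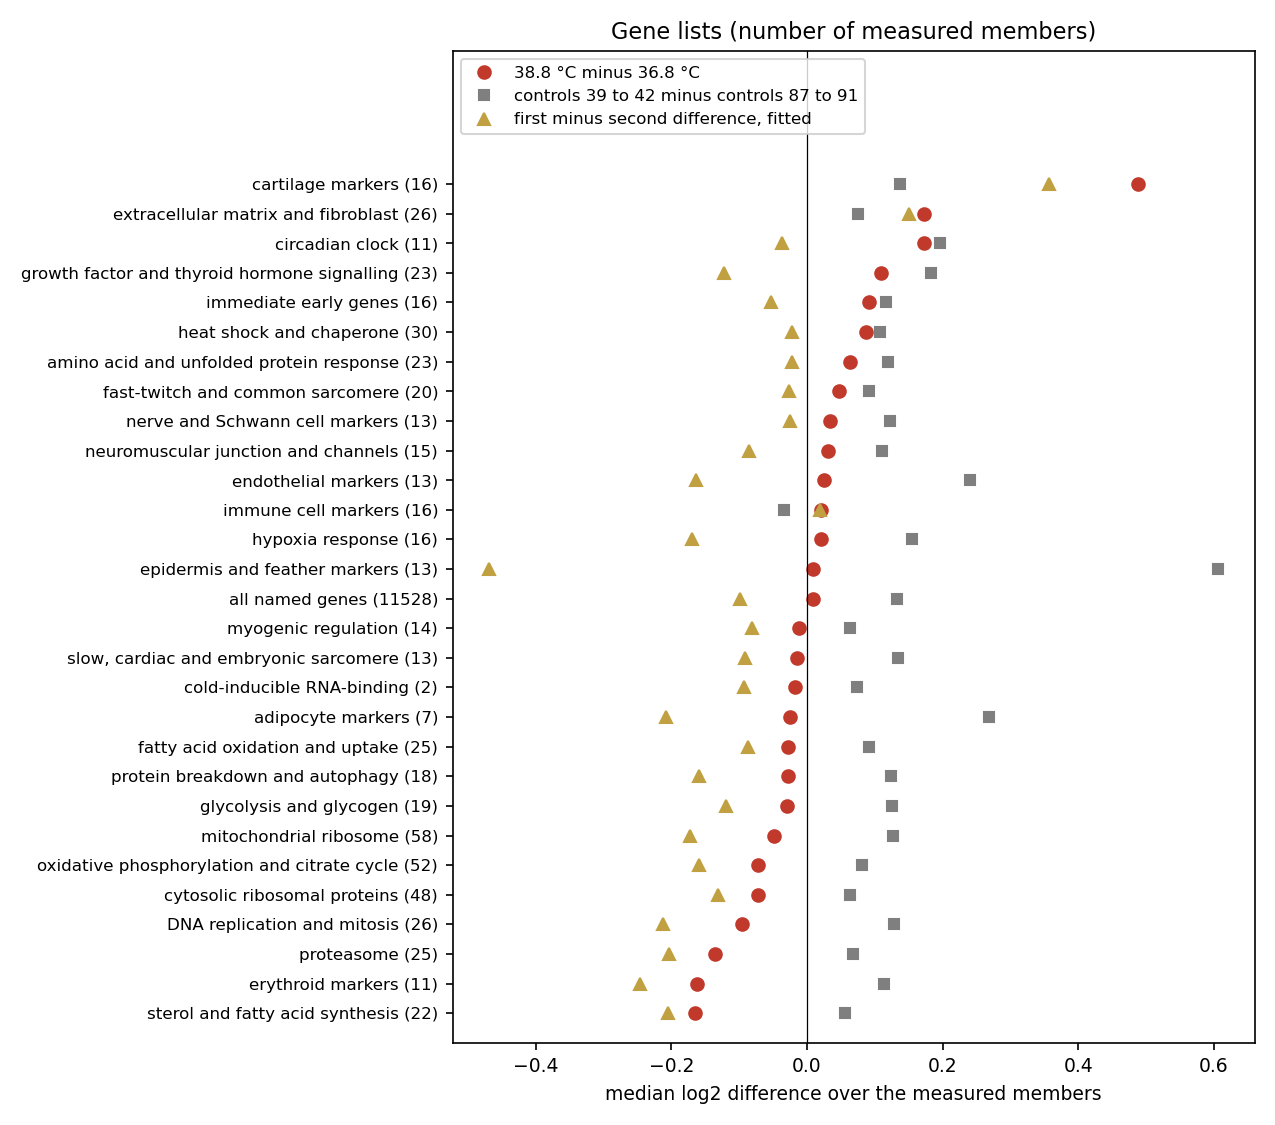
Median log2 difference over the measured members of each gene list (number in brackets), for 38.8 °C minus 36.8 °C (red circles), controls 39 to 42 minus controls 87 to 91 (grey squares) and the control-subtracted difference (yellow triangles). Cartilage and extracellular matrix lie highest and sterol synthesis lowest in the temperature difference, while nearly all control medians lie above 0, as the median of all named genes does.

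Further lists held few calls. In protein breakdown and autophagy 2 of 18 rose and 1 fell (median −0.03): the muscle calpain CAPN3 rose by 0.64 and ATG5, needed for autophagosome formation, by 0.28, and the lysosomal calcium channel MCOLN1 fell by 0.23 (SE 0.04, limma adjusted p = 0.00372) without overlap, with −0.26 after subtraction (adjusted p = 0.0816). In the circadian clock list 2 of 11 rose (median 0.17), NFIL3 by 0.45 and CLOCK by 0.38, and their control differences were 0.29 and 0.42. Of these 11 genes 18.2% rose, against 4.74% of all named genes. The list's control median was 0.20, and after subtraction its median turned to −0.04, with 8 of 11 lower. Over all named genes the control-subtracted median was −0.10, with 8073 of 11528 lower. With quantile normalization as well, the clock list's median was 0.05. CAPN3, ATG5 and MCOLN1 had control differences of 0.39, 0.06 and 0.04, and the protein breakdown list had a control median of 0.12. Of that list 11.1% rose and 5.56% fell, against 4.74% and 2.99% of all named genes. The lists of myogenic regulators, adipocyte, immune, erythroid, endothelial, nerve, epidermis, hypoxia, immediate early and cold-inducible genes had 0 members past limma's threshold. Of their members 22 of 121 had an unadjusted limma p under 0.05 (a gene counted once per list), against 21.2% of all probe sets. Their medians ran from −0.16 (erythroid) to 0.09 (immediate early). Members with the smallest p there were PPARG (0.53) and ADIPOQ (0.29), LY86 (0.43) and C1QC (−0.55), HBE (−0.65) and HBA1 (−0.15), ERG (0.24) and EGFL7 (−0.14), PMP22 (0.15) and UCHL1 (−0.28), PKP1 (0.42) and CDH1 (−0.16), HIF1A (0.32) and SLC2A1 (−0.22), and EGR1 (0.22) and KLF6 (0.18). Epidermal keratin KRT5 had −0.13. It was highest on 36.8 °C array 77 (9.04) and control 41 (9.59). The summed level of 4 epidermis markers was 9.20 to 10.6 at 38.8 °C and 8.97 to 11.3 at 36.8 °C. That of 2 nerve and Schwann cell markers (SOX10 and NEFM) was 7.72 to 7.93 at 38.8 °C and 7.92 to 8.34 at 36.8 °C. The controls had 7.76 to 8.16, and 0 of these 2 markers passed.

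Among the remaining largest falls, CX3CR1, the fractalkine receptor of macrophages, ran from 4.92 to 6.34 (median 5.35) at 38.8 °C and from 6.12 to 7.41 (median 6.47) at 36.8 °C and fell by 1.09 (SE 0.22, limma adjusted p = 0.00917). The summed level of 3 immune markers overlapped, at 10.2 to 10.6 at 38.8 °C and 10.1 to 10.4 at 36.8 °C. PRLHR2, a receptor for prolactin-releasing peptide, fell by 0.73, TMEM244 by 0.67, the matrix metalloproteinase MMP27 by 0.64, HPSE2 (heparanase 2) by 0.61 and the mitochondrial arginase ARG2 by 0.60. NMRAL1 fell by 0.57, EXOSC2, an RNA exosome subunit, by 0.57 (without overlap), the cell adhesion protein NFASC by 0.56, and GSTO2 by 0.54. The control differences of these 10 genes ran from −0.20 (EXOSC2) to 0.33 (GSTO2). MAB21L1, taken by name, fell by 0.28 without overlap (control difference 0.09).

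Among the remaining rises, TINAG, a basement membrane protein, had 6.62 to 7.82 at 38.8 °C and 5.87 to 6.63 at 36.8 °C and rose by 1.09 ± 0.17 (limma adjusted p = 0.00169). LRRC2 rose by 1.01, proglucagon (GCG) by 0.96 and angiotensin-converting enzyme (ACE), taken by name, by 0.64. Control differences were 0.42 for TINAG, 0.30 for LRRC2, 0.24 for GCG and 0.38 for ACE. In the controls, the largest differences past the threshold were in SDR42E2 (0.94), PTPN3 (0.81), CTNNAL1 (0.77), LIN7A (0.70), ADAMTS18 (0.70) and PCSK2 (0.68). At 38.8 against 36.8 °C these 6 genes had 0.59, 0.44, 0.54, 0.46, 0.21 and 0.06, and only CTNNAL1 passed (adjusted p = 0.0489).

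Genes that rose were longer than genes that fell, which is given as a description without a test. By RefSeq gene models of assembly GRCg7b, the median gene length was 39.7 kb among 546 rising genes and 8.85 kb among 345 falling genes, against 16.6 kb over all 11508 named genes with a length. The 87 genes higher in controls 39 to 42 than in controls 87 to 91 had a median of 49.5 kb, and the 7 lower ones 8.27 kb. Across genes, which are not independent replicates and share the same arrays, Spearman's rho of length was 0.30 with the temperature difference, 0.34 with the control difference and −0.07 with the control-subtracted difference. The length pattern is therefore present between controls of 1 temperature, and its relation to incubation temperature cannot be told apart from that of the sample number ranges.

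**Figure D5:**
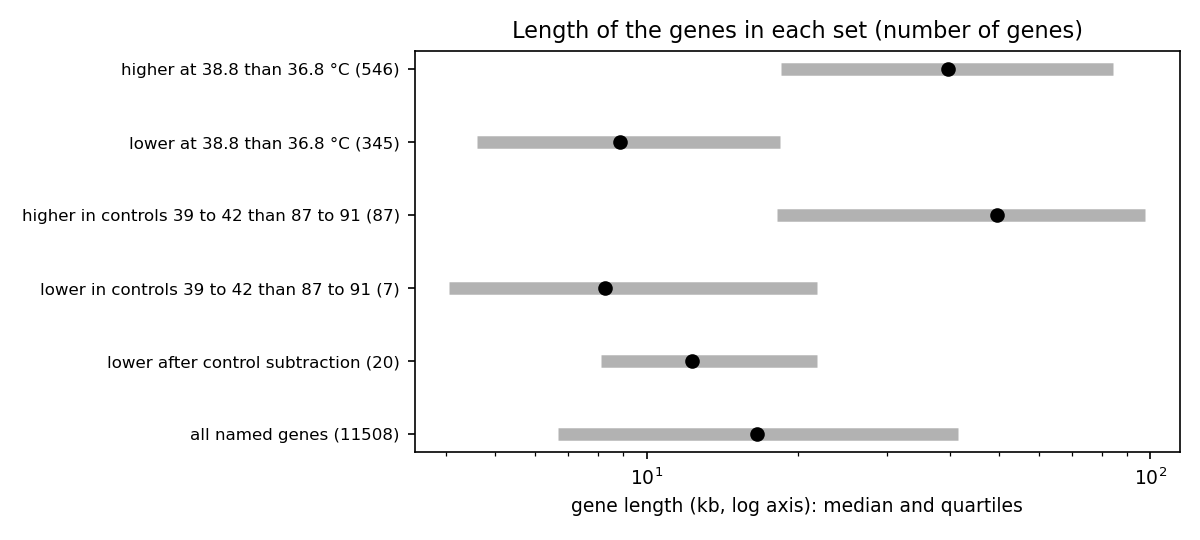
Gene length in kb (log axis) of each set of named genes, with dots for medians and grey bars for the span between quartiles (number of genes in brackets). Genes higher at 38.8 °C (39.7 kb) and genes higher in controls 39 to 42 (49.5 kb) lie right of all named genes (16.6 kb), and genes lower at 38.8 °C (8.85 kb) lie left of them.

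The same temperatures were compared on embryonic day 10 after exposure on days 7 to 10, on other embryos whose listing follows the same pattern. There, 2 probe sets rose (0.00966%) and 5 fell (0.0241%) at 38.8 °C, together 0.0338%. Of the 733 probe sets that rose on day 13, 709 (96.7%) were also higher at 38.8 °C on day 10. Of the 484 that fell, 436 (90.1%) were also lower. Over all probe sets the direction was the same at 14295 (69.0%). In the day 13 controls, 96.2% of the 733 and 62.8% of the 484 were higher in the first range, against 70.3% of all. Because both days split the temperatures over the ranges alike, agreement between days cannot be told apart from a difference between ranges. LGI2 fell on both days (−0.65 on day 10, limma adjusted p = 0.0312), as did RFC4 (−0.39, adjusted p = 0.0354). LBFABP had 2.62 on day 10 (adjusted p = 0.0904), MIR125B2 0.82, AKR1D1 −0.54 and MKI67 0.99, none past the threshold. COL9A1 had −0.85 and GDF5 −0.63 there. The change of the temperature difference between the days passed at 2 probe sets (0.00966%), 1 in each direction (0.00483%) and neither with a gene name: 1 had 0.31 on day 13 and −0.48 on day 10, and the other −0.35 and 0.50 (adjusted p = 0.0297 for both).

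The count of 1217 depended on single embryos. It was 618 without 36.8 °C array 79, 659 and 724 without 38.8 °C arrays 27 and 36, and 699, 703 and 801 without 36.8 °C arrays 72, 73 and 76; without any other single array it lay between 814 and 1749. Without the 3 arrays of high COL9A1 together, 143 probe sets rose and 117 fell, of which 250 were among the 1217. LBFABP (1.37), MIR125B2 (0.87), LGI2 (−1.10), AKR1D1 (−0.78) and GUSB (−0.46) passed there too, at limma adjusted p of 0.00343, 0.00507, 0.00343, 0.00659 and 0.0177.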

How the data were processed

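Per the labels' protocols, DNase-treated total RNA of single frozen samples was labelled as biotinylated cRNA. GCOS 1.1.1 is named in the submitters' processing notes; how probes were summarised and normalized is not given in the sources used here. Values were deposited by the authors as log2 signal in 2 tables, which differed in 0 values (tolerance 1e-06). Of 20804 rows, 98 control probe sets were left out. The platform annotation was matched to GRCg7b genes by Entrez identifier or symbol, which changed 0 symbols. It gave 12300 probe sets a single symbol, 256 more than 1 and 8150 no symbol. Only single symbols were used, and a gene with several probe sets is represented by the probe set with the highest mean. Arrays have no read depth, and their number limits precision.

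limma 3.58.1 in R 4.3.3 (lmFit, eBayes, two-sided) was fitted to the 24 day 13 arrays in 3 groups, or 4 with the controls split by number range for the control difference and the subtraction. Day 10 was fitted on its own 24 arrays, and the change between days on 48. All adjusted p-values are Benjamini-Hochberg values over 20706 probe sets. The procedure was tested on simulated data with noise drawn independently for each probe set and array. Such data cannot show how often differences shared by many probe sets of an array lead to calls. Of 881 listed genes in 28 lists, 581 matched. Some listed names, the cold-inducible CIRBP among them, were left unmatched because the annotation resolved them to another gene's symbol. The lists and named genes were chosen with earlier results of these data known. Named genes follow a rule that took 122: the 12 largest rises and falls past the threshold, 10 genes of smallest p after subtraction, up to 4 passing members of a list (or the 2 of smallest p), the 6 largest control differences and a set given by name. Alternatives covered the number range, normalization, samples, dim probe sets, the variance prior, probe set choice, chromosome W level, bioB and each array left out.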

Additional observations from a re-analysis of the deposited data

Results flagged for a closer look

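Single arrays far from the rest of their group were looked for in 366 groups of 8 arrays, by the gap of the highest or lowest array to its neighbour (Dixon's test); 24 groups (6.56%) had one, where chance gives about 5%. Skin genes stood out on the same arrays: 36.8 °C array 77 read 9.04 for KRT5, 9.80 for PKP1 and 8.06 for CDH1, control 41 read 9.59 for KRT5, and 38.8 °C array 25 read 9.02 for PKP1 and 7.49 for CDH1. The embryonic globin HBE read 10.22 on 38.8 °C array 25. Other high arrays at 38.8 °C were those of PSMD13 (9.89) and UCHL1 (10.42), both on array 30, and low ones were ACVR2B (8.31), SDR42E2 (9.45) and SRSF5 (11.25), all on array 29, and ARG2 (7.04) on array 32. At 36.8 °C, LRRC2 (6.83), MYH1B (11.74) and SLC2A1 (9.37) had a high array, and ANGEL1 (10.63), CLOCK (7.31), HADHB (10.78) and RPL24 (11.40) a low one. Among controls, GCG (7.05), MYH1C (11.67) and RBM3 (12.69) had a high array and AKR1D1 (8.35) a low one.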

How the results depend on the processing

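No paired analysis was possible because the 38.8 °C and 36.8 °C samples share no number. The count of 1217 probe sets became 28 with the sample number range as a term, 1 with that term after quantile normalization, 90 with all 48 embryo arrays sharing 1 spread, 2256 after quantile normalization and 2304 after median centring. It was 350 with bioB as a covariate, 437 with bioB as a 2-level term, 797 with low-bioB arrays only, 614 with high-bioB 36.8 °C arrays only and 260 without the 3 arrays of high COL9A1; the bioB terms, the bioB subsets and that removal were chosen after seeing the data. Leaving out 1 array gave 618 to 1749. The control-subtracted count of 28 became 1 after quantile normalization or centring, 73 without dim probe sets, 46 with a trended robust prior, 5 with all 48 embryo arrays, and 0 to 183 with 1 array left out. The control count of 183 became 29 after quantile normalization and 0 to 1758 with 1 control left out. The causes of these moves were not tested.

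With the sample number range as a term, list medians became −0.0262 (fast sarcomere), −0.21 (DNA replication), −0.0225 (heat shock), −0.0923 (cold-inducible), −0.16 (oxidative phosphorylation), −0.17 (mitochondrial ribosome), −0.13 (cytosolic ribosome), −0.12 (glycolysis), −0.16 (endothelial), −0.0248 (nerve), −0.16 (protein breakdown), −0.20 (proteasome), −0.12 (growth factor), −0.17 (hypoxia), −0.0218 (unfolded protein response), −0.0532 (immediate early), −0.0370 (clock) and −0.0849 (neuromuscular). Over all named genes the median with that term was −0.10. The lists named moved by at least the SD between arrays, within a temperature, of the list's mean level. Lists with a wide spread could move far and stay below it: epidermis went from 0.01 to −0.47, adipocyte from −0.03 to −0.21 and erythroid from −0.16 to −0.25. With quantile normalization as well, list medians that moved by that measure were −0.0856 (endothelial), −0.0374 (growth factor), −0.0796 (hypoxia) and 0.0491 (clock). The epidermis median was −0.36 there.

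Of 82 named genes past the threshold, the direction held under the alternatives run except for ACVR2B, CLOCK and CTNNAL1 (without dim probe sets, 75 of these 82 and 39 of the 40 others were tested). With the number range as a term 9 still passed, and those 3 gave −0.0143, −0.0370 and −0.232; CTNNAL1 gave −0.18 with quantile normalization too. Among the 40 that did not pass, the same term alone and then with quantile normalization turned ADAMTS18 (−0.48, −0.44), DIO2 (−0.43, −0.40), HIF1A (−0.0779, −0.0020), HSPA5 (0.0483, 0.13), LIN7A (−0.24, −0.15), PCSK2 (−0.62, −0.57), PKP1 (−0.23, −0.16), PTPN3 (−0.37, −0.31) and SDR42E2 (−0.36, −0.25). The term alone turned ADIPOQ (−0.0025) and KLF6 (−0.0817), and with quantile normalization it turned MYL4 (0.0054) and UCHL1 (0.0245). DIO2 also turned with quantile normalization (−0.0293), centring (−0.0327), the bioB covariate (−0.0136) and term (−0.0255), high-bioB arrays (−0.14) and without high COL9A1 (−0.0698). HSPA5 turned with quantile normalization (0.0078), the chromosome W covariate (0.00017), the bioB covariate (0.0214) and term (0.0169) and low-bioB arrays (0.0097). PCSK2 turned with the bioB covariate (−0.0036) and term (−0.0388) and high-bioB arrays (−0.0873), as did MYL4 with the last (0.0253). With 1 array left out, DIO2 ranged from −0.12 to 0.14, HSPA5 from −0.0232 to 0.0219 and KRT5 from −0.22 to 0.0857.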
